A study of Homo sapiens with 6 samples.

Results

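The genes described here are a set of 10 listed as TGF-β negative feedback genes and taken by name from the expression table. They are PMEPA1, SMAD7, SMAD6, SKIL, SKI, SMURF1, SMURF2, TGIF1, LDLRAD4 and NKILA. NKILA is in the set although it is known mainly as an inhibitor of NF-κB. Each symbol matched 1 of the 58735 gene rows. They were read in T24 cells, an established line from a human bladder urothelial carcinoma that the labels give as wild type (WT). Treatment was TGF-β1, 10 ng/ml over 48 h (3 libraries), and the labels call the remaining 3 libraries controls. All were grown with 10% fetal bovine serum and sampled at day 2, and total RNA was sequenced as 150 bp read pairs. The line is a single cell line, and the labels do not say whether replicates were separate cultures, so the p-values below measure only the spread between these libraries, which may be technical.

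TGF-β binds a pair of receptor kinases that phosphorylate SMAD2 and SMAD3, which join SMAD4 and enter the nucleus to change transcription. Several of the genes switched on in this way code for proteins that dampen the same pathway: at the receptor, by blocking or degrading SMADs, or by silencing SMAD target genes. Negative feedback of this kind limits how long and how strongly a cell answers the cytokine, and in carcinoma cells it accompanies the epithelial-to-mesenchymal programme that TGF-β can induce. NKILA, a long non-coding RNA, is known mainly as an inhibitor of NF-κB that binds the NF-κB and IκB complex, and it is read from the strand opposite the start of PMEPA1.

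The start regions of the members are shown because the SMAD proteins bind short DNA elements near their target genes. RefSeq promoter windows (GRCh38.p14), from 250 bases before to 50 after each start site, were found for 9 of the 10 members, SKI being the exception. The 9 members have 28 windows, some of which overlap. On both strands the windows were searched for CAGAC, a SMAD-binding element whose reverse complement is GTCTG, for the palindrome GTCTAGAC, and for TGANTCA, the AP-1 element. None of these contains another, and no 2 matches in the members' windows shared bases. Below, capitals mark the matches, and each sequence reads 5′ to 3′ on the strand of its gene.

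PMEPA1, chr20:57709966-57710265, minus strand: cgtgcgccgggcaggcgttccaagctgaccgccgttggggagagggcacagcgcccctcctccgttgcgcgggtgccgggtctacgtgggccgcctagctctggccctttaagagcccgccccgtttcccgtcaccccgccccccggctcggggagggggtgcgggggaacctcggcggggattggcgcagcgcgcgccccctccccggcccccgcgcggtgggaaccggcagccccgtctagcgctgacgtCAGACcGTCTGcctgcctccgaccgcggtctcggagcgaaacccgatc
SMAD7, chr18:48950916-48951215, minus strand: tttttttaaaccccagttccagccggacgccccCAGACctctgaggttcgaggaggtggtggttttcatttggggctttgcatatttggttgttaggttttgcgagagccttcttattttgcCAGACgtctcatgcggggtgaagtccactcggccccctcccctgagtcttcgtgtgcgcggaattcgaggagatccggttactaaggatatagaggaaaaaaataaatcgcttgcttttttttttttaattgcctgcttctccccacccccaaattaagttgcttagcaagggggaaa
SKIL, chr3:170357465-170357764, plus strand: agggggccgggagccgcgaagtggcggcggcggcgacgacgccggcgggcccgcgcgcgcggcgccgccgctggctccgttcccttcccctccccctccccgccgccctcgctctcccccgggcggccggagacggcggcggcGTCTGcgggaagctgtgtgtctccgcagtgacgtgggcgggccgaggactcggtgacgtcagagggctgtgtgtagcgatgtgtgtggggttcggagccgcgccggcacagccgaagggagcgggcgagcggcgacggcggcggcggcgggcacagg
SMAD6, chr15:66701986-66702285, plus strand: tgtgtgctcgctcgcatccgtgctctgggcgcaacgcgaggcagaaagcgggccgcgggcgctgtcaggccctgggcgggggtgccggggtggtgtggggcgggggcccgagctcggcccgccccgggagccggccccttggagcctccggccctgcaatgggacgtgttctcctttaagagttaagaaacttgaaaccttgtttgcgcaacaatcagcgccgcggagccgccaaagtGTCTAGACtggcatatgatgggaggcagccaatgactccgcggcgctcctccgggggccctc

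The PMEPA1, SMAD7 and SKIL windows are from the coding genes that rose, and the SMAD6 window is from the paralog of SMAD7, which was expressed at a low level. Of the 4 PMEPA1 and 3 SMAD7 windows the one with the most CAGAC matches is shown; the other PMEPA1 windows have 0, 1 and 1, and the other SMAD7 windows 1 and 0. This PMEPA1 window shares 267 bases with the single NKILA window, on the opposite strand, so both genes have the same pair of CAGAC matches. The SMAD7 window held 2 CAGAC matches and the SKIL window 1. The SMAD6 window was the only member window with the palindrome GTCTAGAC, which 0.202% of all 35116 windows hold, and CAGAC was not in it. The CAGAC element was in 20 of the 28 member windows and in 45.3% of all windows. Many of the 20 are windows of LDLRAD4 (6 of 9) and TGIF1 (5 of 7), which were not among the risers. By gene, 8 of the 9 members with windows and 50% of 27305 genes had it in at least 1 window. These 2 shares are not on an equal footing, since a gene with more windows has more room for a match. The 9 members have 28 windows, and the 27305 genes have 35116. TGANTCA was in 3 member windows, all of TGIF1, and in 7.71% of all windows. These matches describe letters in the windows and show no binding.

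Library facts that bear on the values are as follows. The libraries held 20703945 to 23678772 fragments on genes with a unique annotated name. Control 3 stood apart from its group: its root-mean-square log2 difference was 0.279 and 0.313 to the other controls, against 0.242 to 0.283 to the TGF-β1 libraries. For the members and the genes named with them, the value without control 3 is given where it changes a call. Of 18 urothelial and epithelial markers, 7 reached 1 FPKM in at least 3 libraries: KRT8, KRT18, KRT7, FOXA1, PPARG, UPK1B and UPK1A. Of these, FOXA1, PPARG, UPK1B and UPK1A stayed at or below 3.21 FPKM. KRT5, KRT13, KRT19 and UPK3A were at 0 in all 6 libraries, and CDH1, EPCAM and GATA3 were under 0.35 FPKM. The summed level of the 18 epithelial markers, nearly all of it KRT8 and KRT18, was 477 to 645 FPKM in controls and 414 to 445 with TGF-β1, and that of the 3 mesenchymal markers, VIM, CDH2 and FN1, was 181 to 195 and 284 to 335 FPKM. The part of either in the results was not tested. None of 7 markers of blood and endothelial cells reached 1 FPKM in 3 libraries, and their summed level was 0.449 to 0.574 FPKM in controls and 0.431 to 0.463 with TGF-β1. Levels are in FPKM, fragments scaled to gene length and library size, and so can be compared between genes. Changes are differences of mean log2(FPKM + 1), where the added 1 makes those of low genes too small.

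Of the 10 members, 8 reached 1 FPKM in at least 3 libraries and were tested, and all 8 were above 1 FPKM in every library. PMEPA1, SMAD7, SKIL and NKILA rose with TGF-β1, none fell, and SMURF1, SMURF2, SKI and TGIF1 did not pass an adjusted p of 0.05 in limma. In the same fit 2.44% of 11363 genes passed in either direction and 1.14% passed as higher. The 4 members are among 19 genes in all that passed and were at least 2-fold higher on that scale. By size of change over all 11363 tested genes, passing or not, they stood at ranks 2, 15, 17 and 18. All 8 had a positive change, as did 5906 of the 11363 genes, and the median change was 0.69 against 0.012 over all genes tested. The TGF-β1 libraries lay wholly above the controls for 6 of the 8, which 14.6% of all tested genes did.

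**Figure D1:**
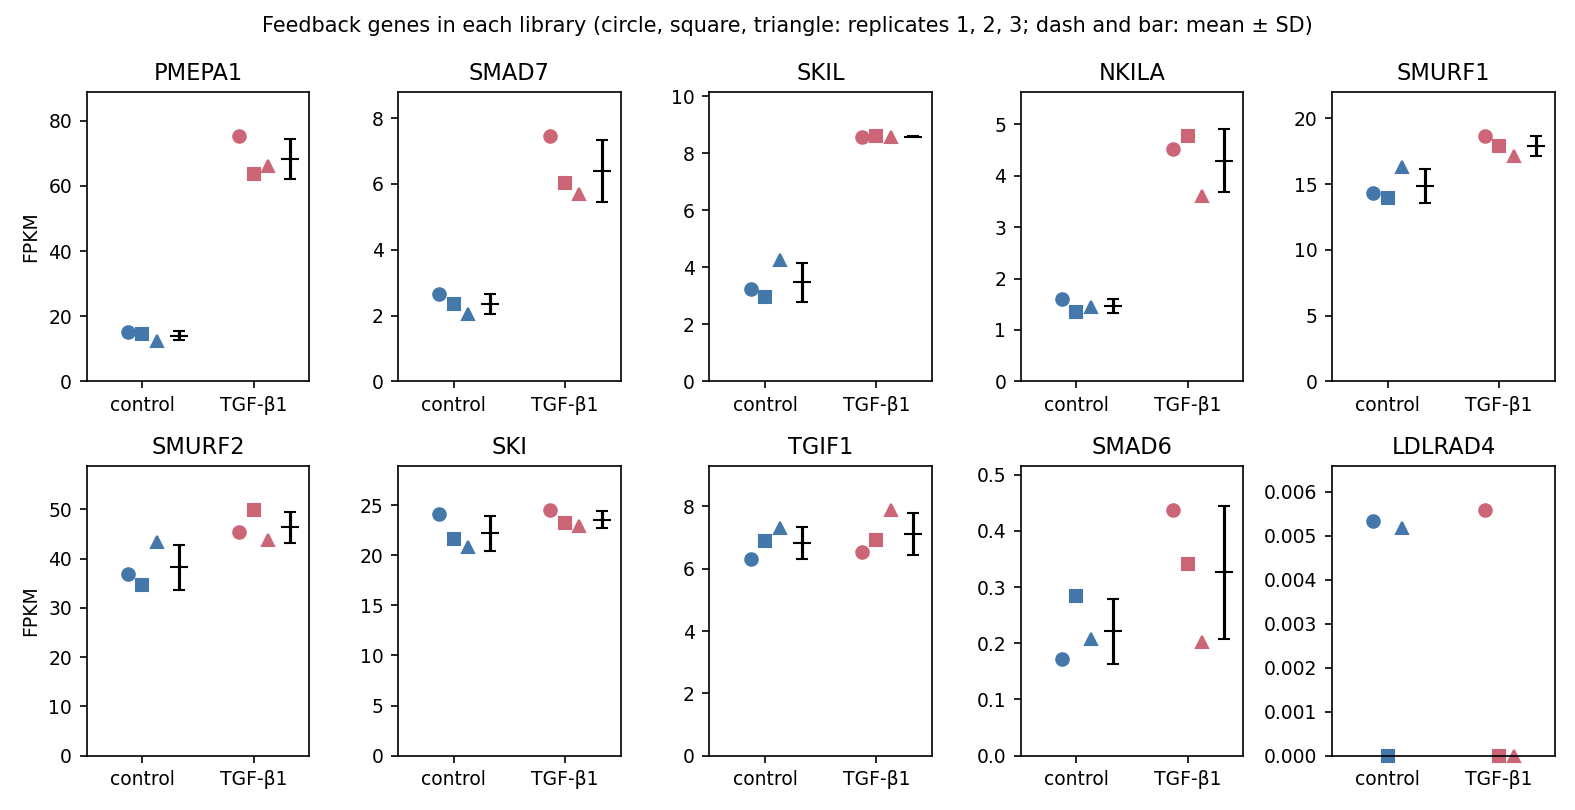
FPKM (vertical axes, each from 0) of the 10 genes in the 3 control (blue) and 3 TGF-β1 (red) libraries; points are libraries, and the dash and bar are the mean and SD (not drawn for LDLRAD4). PMEPA1, SMAD7, SKIL and NKILA are separated widely between groups, SMURF1 and SMURF2 narrowly, and SKI, TGIF1, SMAD6 and LDLRAD4 overlap.

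At the receptor level, PMEPA1 had the largest change of the members. It encodes a membrane protein that binds SMAD2 and SMAD3 and keeps them from the receptor, and it lies on chromosome 20 at 57648392 to 57711536. Its level was 15.2, 14.6 and 12.4 FPKM in controls 1 to 3 and 75.3, 63.6 and 66.2 FPKM in TGF-β1 libraries 1 to 3. The groups were far apart, the lowest TGF-β1 library being 4.17 times the highest control. The change was 2.20 (SE 0.11, 95% interval 1.96 to 2.44, adjusted p = 7.1e-06), on 5385 fragments summed over the controls and 26459 over the TGF-β1 libraries. Control 3 was the lowest of all 6 libraries for PMEPA1, so here it did not lie toward the treated group.

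LDLRAD4, the paralog of PMEPA1 and likewise a membrane inhibitor of SMAD phosphorylation, was near 0. It lies on chromosome 18 at 13217498 to 13652755. It had 2, 0 and 2 fragments in controls 1 to 3 and 2, 0 and 0 in TGF-β1 libraries 1 to 3. A count of 0 allows up to 3 fragments, and 3 fragments on LDLRAD4 are 0.00746 to 0.00836 FPKM, so no difference was detectable at this depth.

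Of the inhibitory SMADs, SMAD7 rose. SMAD7 occupies the activated receptor and brings ubiquitin ligases to it, and its gene lies on chromosome 18 at 48919853 to 48952052. It stood at 2.65, 2.36 and 2.05 FPKM in controls 1 to 3 and at 7.45, 6.03 and 5.70 FPKM in TGF-β1 libraries 1 to 3. Every TGF-β1 library was at least 2.15 times the highest control. The ratio of the means was 2.72 and the change 1.14 (SE 0.12, 95% interval 0.88 to 1.39, adjusted p = 0.00055), on 805 and 2212 fragments.

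SMAD6, which acts mainly on BMP receptors, was far lower. Its gene lies on chromosome 15 at 66702228 to 66782848. It stood at 0.172, 0.284 and 0.207 FPKM in controls 1 to 3 and at 0.436, 0.341 and 0.202 FPKM in TGF-β1 libraries 1 to 3. The groups overlapped, since TGF-β1 library 3 was below controls 2 and 3. Summed over libraries SMAD6 had 129 and 191 fragments, a depth-adjusted ratio of 1.46 with an exact 95% interval of 1.16 to 1.84 that covers counting error only. SMAD6 was under the filter for the test; in a limma fit with no filter its change was 0.12 (SE 0.10, adjusted p = 0.61).

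The ubiquitin ligases SMURF1 and SMURF2, which SMAD7 carries to the receptor and which mark it for degradation, showed small differences. SMURF2 was 36.9, 34.6 and 43.4 FPKM in controls 1 to 3 and 45.5, 49.8 and 43.7 FPKM in TGF-β1 libraries 1 to 3. SMURF1 was 14.3, 13.9 and 16.3 FPKM in controls and 18.6, 17.9 and 17.1 FPKM in TGF-β1 libraries. In both genes control 3 was the highest control and lay just under the lowest TGF-β1 library, by a factor of 1.01 for SMURF2 and 1.05 for SMURF1. The changes were 0.27 for SMURF2 (SE 0.11, adjusted p = 0.16) and 0.25 for SMURF1 (SE 0.094, adjusted p = 0.14).

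Without control 3 both SMURF genes passed, with changes of 0.36 and 0.32 and an adjusted p of 0.02 each. In that fit 6 members were higher, but so were 12.4% of all genes tested. After removal of a trend over GC content and gene length, the change of SMURF2 was 0.12 (adjusted p = 0.37); the longest SMURF2 transcript has 39.3% GC, at percentile 13.4 of the genes tested. SMURF1, on chromosome 7 at 99027438 to 99144100, shares 735 exon bases (11.7% of its length) on the opposite strand with TRRAP, which was at 7.97 FPKM in controls and 9.48 with TGF-β1. SMURF2, on chromosome 17 at 64542295 to 64662068, shares 167 (2.40%) with CEP95, at 1.77 and 1.89 FPKM. The sources used here do not say if reads were assigned by strand, and fragments in shared bases cannot be told apart.

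Among the nuclear co-repressors, SKIL rose and SKI and TGIF1 did not pass the test. SKIL and SKI are related proteins that bind SMAD complexes on DNA and recruit repressors, and SKIL lies on chromosome 3 at 170357678 to 170396835. SKIL stood at 3.24, 2.95 and 4.25 FPKM in controls 1 to 3 and at 8.56, 8.60 and 8.59 FPKM in TGF-β1 libraries 1 to 3. Control 3 was the highest control, and still the lowest TGF-β1 library was 2.02 times as high. The change was 1.11 (SE 0.11, 95% interval 0.86 to 1.36, adjusted p = 0.00055). The 3 TGF-β1 libraries had a coefficient of variation of 0.238% against 19.6% in the controls. They held 1426, 1605 and 1587 SKIL fragments, and counting error alone at such numbers is larger than 0.238%. The closeness of these 3 values is thus finer than the counts resolve, and a difference in spread between groups was not tested. The longest SKIL transcript has 33.4% GC, lower than all but 0.5% of the genes tested, and after removal of the trend over GC and length SKIL changed by 0.89 (adjusted p = 0.00037).

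SKI, on chromosome 1 at 2228695 to 2310119, did not pass. It stood at 24.1, 21.6 and 20.8 FPKM in controls 1 to 3 and at 24.5, 23.3 and 22.9 FPKM in TGF-β1 libraries 1 to 3, and the groups overlapped. Its change was 0.086 (95% interval -0.12 to 0.29, adjusted p = 0.57), and after the same removal 0.24 (adjusted p = 0.069). TGIF1, a homeodomain co-repressor on chromosome 18 at 3411608 to 3459978, stood at 6.30, 6.88 and 7.30 FPKM in controls and at 6.54, 6.93 and 7.87 FPKM in TGF-β1 libraries. Its change was 0.051 (95% interval -0.17 to 0.27, adjusted p = 0.76), with groups that overlapped.

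NKILA rose too. It stood at 1.60, 1.34 and 1.45 FPKM in controls 1 to 3 and at 4.51, 4.77 and 3.60 FPKM in TGF-β1 libraries 1 to 3, with no overlap between groups. The ratio of the means was 2.93 and the change 1.10 (SE 0.11, 95% interval 0.86 to 1.34, adjusted p = 0.00051), on 259 and 770 fragments. In PMEPA1 the highest TGF-β1 library was replicate 1, and in NKILA it was replicate 2. NKILA lies on chromosome 20 at 57710183 to 57712780, and 52.1% of it is inside the PMEPA1 gene. Of its 2598 bases, 343 are also PMEPA1 exon, 1011 are in PMEPA1 introns only and 1244 lie beyond PMEPA1. Of 8 annotated PMEPA1 transcripts 4 start inside NKILA. Without the strand of the counting, PMEPA1 and NKILA fragments in the 343 shared exon bases, 13.2% of NKILA, cannot be told apart. The same holds for any PMEPA1 fragments from the 1011 intron bases, so the doubt can reach the 52.1% of NKILA inside PMEPA1.

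**Figure D2:**
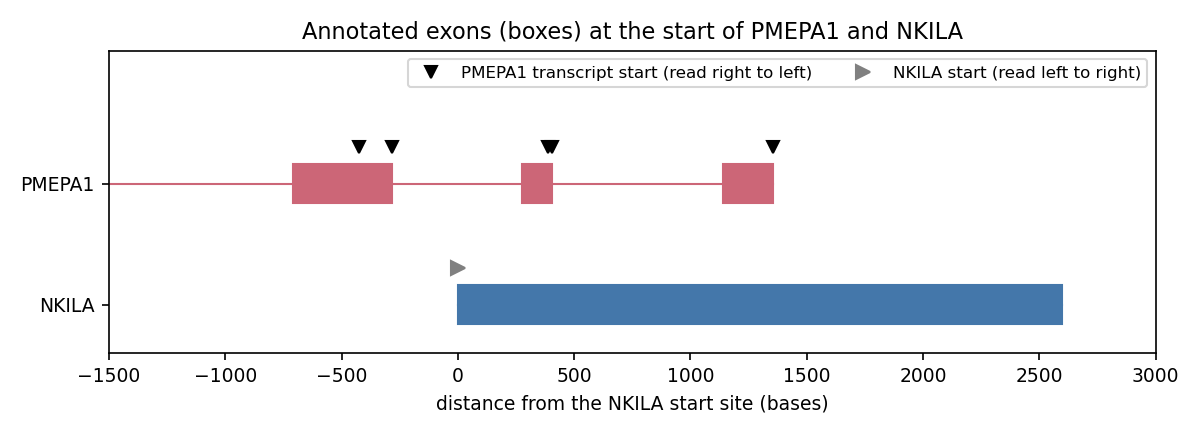
Annotated exons (boxes, GENCODE release 29) of PMEPA1 and NKILA, by distance in bases from the NKILA start; triangles mark transcript starts, and PMEPA1 continues to the left. NKILA runs for 2598 bases, of which 343 are also PMEPA1 exon, and PMEPA1 transcripts start on both sides of the NKILA start.

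The calls of PMEPA1, SMAD7, SKIL and NKILA held whichever library was left out, with a highest adjusted p in limma of 0.00049, 0.005, 0.0026 and 0.005. With no filter on low values, over 28285 rows, PMEPA1 still passed (adjusted p = 0.0057), and SMAD7, SKIL and NKILA did not (0.061, 0.061 and 0.056).

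**Figure D3:**
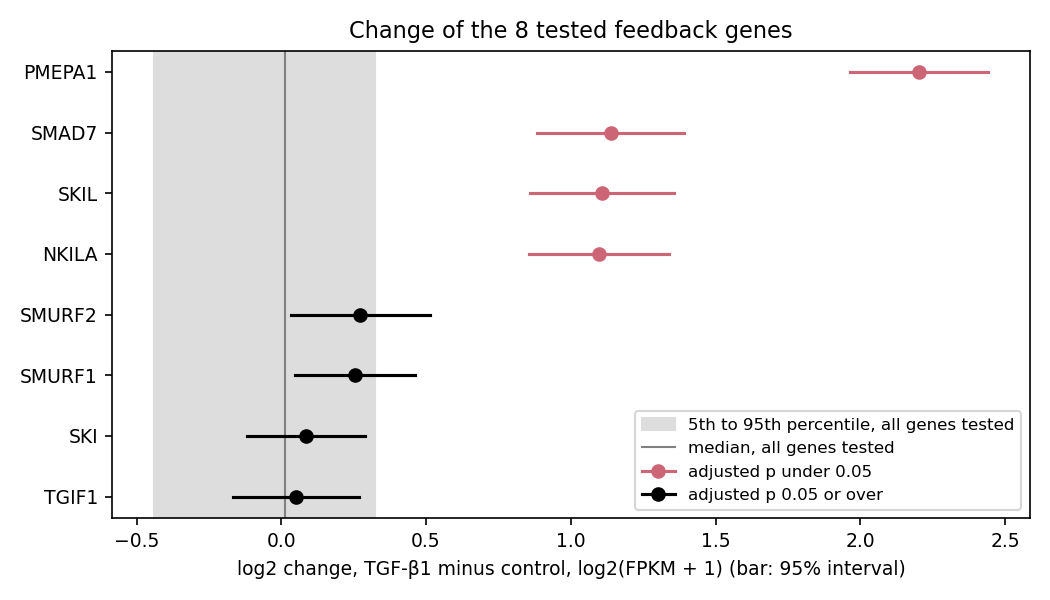
Log2 change on the log2(FPKM + 1) scale (horizontal axis, TGF-β1 minus control) of the 8 tested genes with 95% intervals; the grey band spans the 5th to 95th percentile of all 11363 genes tested, -0.44 to 0.32. The intervals of PMEPA1, SMAD7, SKIL and NKILA lie wholly above the band, and those of the other genes reach into it.

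The order of the levels among the members, which depends on the exon lengths used, differed between the groups. In controls the means ran from SMURF2 (38.3 FPKM) through SKI (22.2), SMURF1 (14.8), PMEPA1 (14.1), TGIF1 (6.83), SKIL (3.48), SMAD7 (2.35), NKILA (1.46) and SMAD6 (0.221) to LDLRAD4. Of these neighbours only SMURF1 and PMEPA1 had overlapping libraries. With TGF-β1, PMEPA1 was first at 68.4 FPKM, above SMURF2 (46.4), SKI (23.5), SMURF1 (17.9), SKIL (8.58), TGIF1 (7.11), SMAD7 (6.39), NKILA (4.29) and SMAD6 (0.326). There only TGIF1 and SMAD7 overlapped.

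In 3 of the 4 paralog pairs the member that rose was compared with its paralog by the ratio of their values within each library, which a scaling between libraries touches only through the pseudocount. The FPKM of SMAD7 was 8.32 to 15.4 times that of SMAD6 in controls and 17.1 to 28.3 times with TGF-β1. SKIL was 0.134 to 0.204 times SKI in controls and 0.350 to 0.375 times with TGF-β1. On the log2 scale with 1 added to each FPKM, the SMAD7 ratio was higher with TGF-β1 by 1.02 (SE 0.10) and the SKIL ratio by 1.02 (SE 0.17). SMAD6 was at most 0.436 FPKM, so with 1 added the SMAD7 value largely restates the SMAD7 change of 1.14. The FPKM ratio of that pair rests on 33 to 80 SMAD6 fragments per library. The PMEPA1 ratio to LDLRAD4 was higher by 2.20 (SE 0.11), which restates the PMEPA1 change because LDLRAD4 was near 0. Groups did not overlap in these 3 pairs, and the exact two-sided permutation test gave p = 0.1 for each, the smallest possible with 3 against 3, or 0.13 adjusted over 4 pairs.

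The ratio of SMURF2 to SMURF1 was 2.49 to 2.67 in controls and 2.44 to 2.79 with TGF-β1. Its log2 difference was 0.019 (SE 0.063, exact permutation p = 0.9), and the sign turned without control 2 or without TGF-β1 library 2 (-0.0072 and -0.033).

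**Figure D4:**
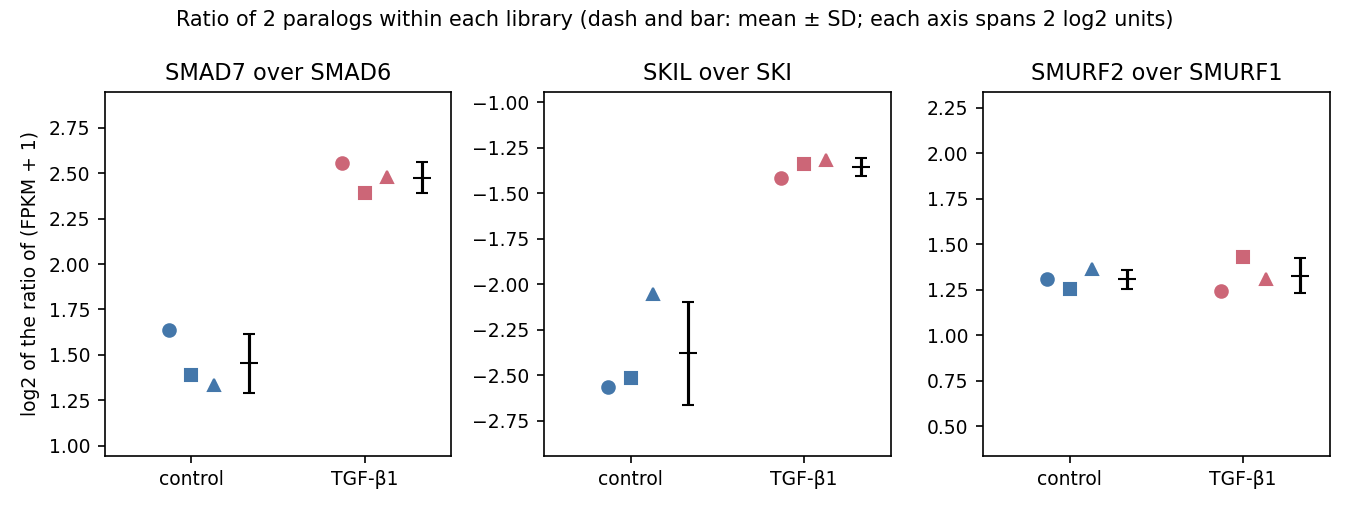
Log2 ratio of (FPKM + 1) of 2 paralogs within each library (vertical axes, each spanning 2 log2 units) for control (blue) and TGF-β1 (red), with the mean and SD of 3 libraries. The SMAD7 and SKIL ratios are higher in all 3 TGF-β1 libraries, and the SMURF2 ratio overlaps.

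The rest of the pathway was read from gene lists, to be set against the 2.44% of all genes that passed. Without control 3, 28.9% of all genes passed, 12.4% as higher and 16.5% as lower, so the list counts without it are to be set against those shares. Of 11 tested ligands, receptors and SMADs none passed in limma, 4 were at an unadjusted p under 0.05, as were 2849 of all 11363 genes, and their median change was 0.016. With control 3 left out, 3 passed as higher (TGFBR1, TGFB2 and SMAD2) and 1 as lower (ENG), against the 12.4% and 16.5% of all genes. TGFBR1, the type I receptor that SMAD7 blocks, was at 4.77 ± 0.766 FPKM in controls and 6.50 ± 0.264 with TGF-β1 (SD, n = 3; limma adjusted p = 0.082, and 0.0087 without control 3). SMAD3 was at 34.2 ± 1.70 and 28.8 ± 0.979 FPKM (limma adjusted p = 0.14), SMAD2 at 1.73 and 2.12 FPKM (0.25, and 0.04995 without control 3), SMAD4 at 3.90 and 4.48 FPKM (0.27) and TGFBR2, the type II receptor, at 14.2 and 13.5 FPKM (0.62). TGFB1, the gene of the ligand itself, was at 114 and 108 FPKM (0.67). TGFB2, a further ligand, was at 0.720 and 1.11 FPKM (0.13, and 0.048 without control 3), and ENG, a co-receptor, at 37.1 and 31.7 FPKM (0.18, and 0.035).

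Further lists covered receptor-level inhibitors, ubiquitin ligases, deubiquitinases, SMAD phosphatases and co-repressor partners, not all of which dampen the pathway. None of their tested genes passed in limma with all 6 libraries. Of 3 tested receptor-level inhibitors, SPSB1, which promotes degradation of the type II receptor, was at 10.1 ± 0.719 and 7.62 ± 0.577 FPKM (SD, n = 3; limma adjusted p = 0.073, and 0.015 without control 3). FKBP1A, which holds the type I receptor inactive, was at 495 and 578 FPKM (0.27), and STRAP, which helps SMAD7 bind the receptor, at 116 and 127 FPKM (0.38). BAMBI, a decoy receptor, was under the filter. None of the 3 passed in limma, with 1 at an unadjusted p under 0.05. Of 8 ubiquitin ligases none passed, with 3 at an unadjusted p under 0.05, and STUB1, a chaperone-linked ligase, was at 29.1 ± 6.69 and 17.8 ± 2.93 FPKM (limma adjusted p = 0.086, and 0.0086 without control 3). RNF111, which degrades SMAD7, SKI and SKIL proteins, was at 4.24 and 5.11 FPKM (0.27), and NEDD4 at 19.6 and 24.3 FPKM (0.14, and 0.011 without control 3). None of 6 deubiquitinases, 5 SMAD phosphatases and 9 co-repressor partners passed in limma, with 4, 0 and 3 at an unadjusted p under 0.05. The list medians were 0.13 for the receptor-level inhibitors, 0.11 for the ligases, 0.065 for the deubiquitinases, 0.020 for the phosphatases and 0.13 for the co-repressor partners. USP9X and USP15, deubiquitinases that act on SMAD4 and on the type I receptor, were at 7.87 and 9.94 FPKM and at 1.27 and 1.75 FPKM (limma adjusted p = 0.16 for each, and 0.015 for USP9X without control 3). NCOR1, a co-repressor that SKI and SKIL recruit, was at 6.23 and 7.43 FPKM (0.26, and 0.039 without control 3). Without control 3, the ligases had 2 higher and 1 lower, the deubiquitinases and the co-repressor partners 1 higher and 1 lower each, and the receptor-level inhibitors and the phosphatases 1 lower each, out of 8, 6, 9, 3 and 5 tested genes and against 12.4% higher and 16.5% lower over all genes. TGIF2, the paralog of TGIF1, was at 11.6 and 9.63 FPKM (0.16, and 0.032 without control 3).

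For scale, 9 of 13 genes known to be induced by TGF-β rose and none fell, with a median change of 0.90; the list was written with earlier results of these libraries known and gives no independent evidence. FN1, fibronectin, was 54.5 FPKM in controls and 159 with TGF-β1 (change 1.53, adjusted p = 3.6e-05), and FSTL3 3.76 and 16.1 FPKM (1.88, adjusted p = 0.0033). In the BMP branch 1 of 9 tested genes rose, BMPR2 (7.20 to 12.9 FPKM, adjusted p = 0.0039), with a list median of 0.21, and 4 passed as higher once control 3 was left out, against 12.4% of all genes. ID1, a direct target of BMP SMADs, was at 50.8 and 59.1 FPKM (adjusted p = 0.35). Of 10 tested NF-κB genes, looked at because of NKILA, none rose and 1 fell, with a median of -0.17. It was NFKBIA, the IκBα inhibitor that NF-κB itself induces, at 135, 133 and 110 FPKM in controls and 92.1, 89.8 and 72.9 FPKM with TGF-β1 (change -0.56, adjusted p = 0.041). That call was lost without control 1, control 2, TGF-β1 library 2 or TGF-β1 library 3 (adjusted p 0.11 to 0.20), and with control 3 left out 3 genes of the list were lower (NFKBIA, RELB and IKBKG), against 16.5% of all genes. RELB, a subunit of the non-canonical branch, was at 38.4 and 30.3 FPKM (0.19, and 0.015 without control 3), and IKBKG, the scaffold of the IκB kinase, at 4.53 and 3.02 FPKM (0.23, and 0.030).

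The genes whose 6 library values lay nearest to each riser were found by Euclidean distance of log2(FPKM + 1) from the control mean. For PMEPA1 they were TUBA4A, an alpha-tubulin (distance 0.42), FSTL3, a secreted binder of activin (0.73), and ADAM19, a metalloprotease (1.25). For SMAD7 they were the antisense RNA AP000695.2 (0.29), NKILA (0.30) and LTBP2, a matrix protein (0.33). For SKIL they were AMIGO2, a membrane adhesion protein (0.26), ITGAV, the αv integrin (0.27), and UCN2, a peptide hormone (0.33). For NKILA they were AP000695.2 (0.23), SMAD7 (0.30) and UCN2 (0.31). The distance rests on 6 libraries in 2 groups. UCN2 had 0.0493 FPKM in controls and 1.46 with TGF-β1, a far larger ratio than that of SKIL or NKILA.

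**Figure D5:**
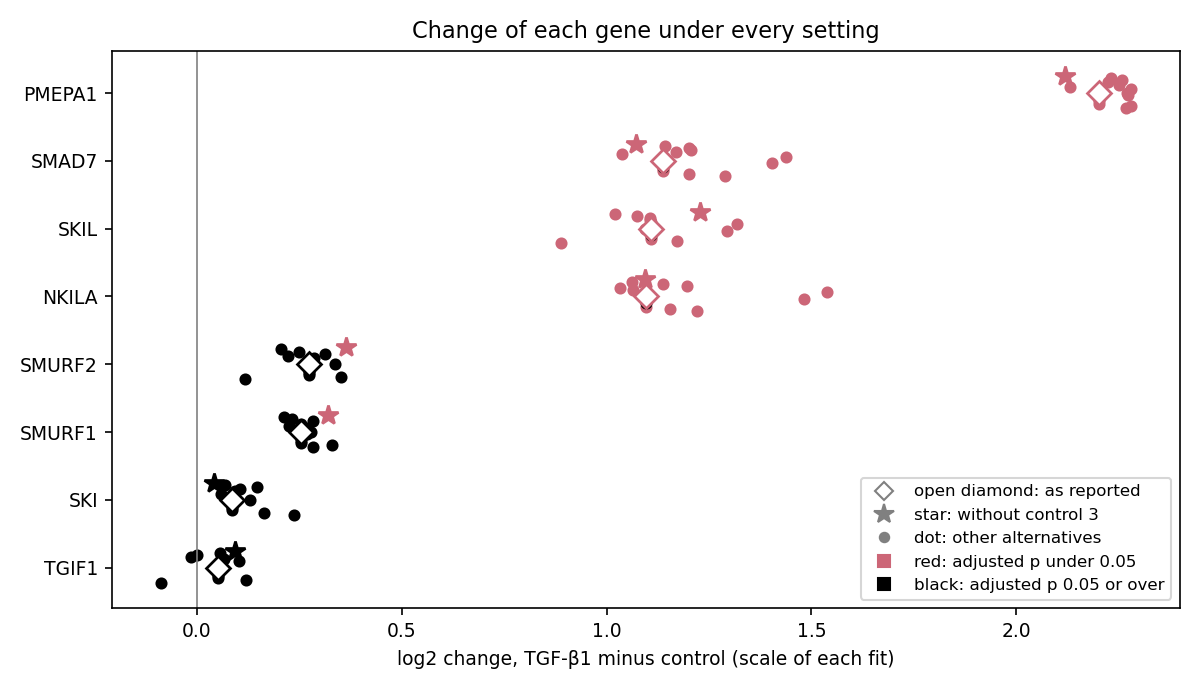
Log2 change (horizontal axis, on the scale of each fit) of the 8 tested genes as reported (open diamond), without control 3 (star) and under the other alternatives (dots), red where the adjusted p is under 0.05; the dots of the fit with no filter lie behind the diamonds. The 4 risers lie between 0.89 and 2.28 in all settings they entered, the SMURF genes pass only without control 3, and TGIF1 falls on both sides of 0.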

How the data were processed

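RNA-seq of 6 T24 libraries was used, 3 control and 3 with TGF-β1. Per the submitters' processing notes, reads were handled with HISAT2 2.0.5 and featureCounts 1.5.0-p3 on hg38; the sources used here do not give the strand setting or annotation. The deposited values are FPKM, in 1 table whose columns equal the 6 sample files; 11 rows of mapping totals were left out. Exon lengths of GENCODE 29 (GRCh38) turned 99.999% of 126561 FPKM values into whole fragments (within 0.05), which gave the depths and fragment counts printed.

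The test was limma 3.58.1 (R 4.3.3) on log2(FPKM + 1) with trend and robust estimation, treatment as the only term, over 11363 genes with at least 1 FPKM in 3 libraries, and Benjamini-Hochberg adjustment at 0.05. It was checked on simulated data. Paralog ratios were compared by exact permutation (SciPy 1.17.1). CCN2 was read under its older symbol CTGF. The members, the gene lists and the naming rule were chosen with earlier results of these data known. Named were all members, up to 4 genes per list (those past the threshold first, then by size), core pathway genes and the 3 nearest profiles; some genes that the rule allows are given only in the counts, and some are not reported here. Alternatives were pseudocount, filter, scaling, variance model, replicate block, single libraries, coding genes, voom on the fragments and a GC and length trend.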

Additional observations from a re-analysis of the deposited data

How the results depend on the processing

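PMEPA1 passed in all 16 alternatives (change 2.12 to 2.28) and SMAD7 and SKIL in 15 of 16 (1.04 to 1.44 and 0.89 to 1.32). NKILA passed in 13 of 14 (1.03 to 1.54), being outside the fits at 5 FPKM and of coding genes. With no filter 1 member passed and 15 genes in all, over more rows. SKI and TGIF1 passed in none, and TGIF1 turned negative after removal of the GC and length trend (-0.088) and without TGF-β1 library 3 (-0.015), its range on leaving out 1 library being -0.015 to 0.10. The count of all genes past the threshold, 277 (130 higher, 147 lower), was 497 (284 and 213) after that removal, 500 (179 and 321) at a minimum of 5 FPKM, 846 (295 and 551) for coding genes, 1054 (396 and 658) by voom and 124 to 3280 on leaving out 1 library; it was 359 (205 and 154) with FPKM scaled to equal sums. With the replicate number as a block (replicate block) it was 767 (249 and 518), with the same 4 members. Same-numbered libraries correlated at 0.254, -0.0715 and 0.17. Controls 1 and 3 correlated best with the TGF-β1 library of their own number, and control 2 with TGF-β1 library 1 (0.0571). Whether the numbers pair the libraries was thus not settled. Blocked paralog ratios gave the same differences (exact p = 0.25 for the 3 that differed). Apart from LDLRAD4 and SMAD6, every member had at least 79 fragments per library.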
